A study of Homo sapiens with 7 samples.

Results

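The 9 genes described here encode parts of type I interferon signaling: the receptor subunits IFNAR1 and IFNAR2, the receptor kinase JAK1, the transcription factor STAT2 and the interferon regulatory factors IRF1, IRF2, IRF3, IRF7 and IRF9. They were selected by gene symbol and make up 9 of the 57189 genes in the count table. RNA sequencing was performed on RH30 cells, an established cell line of alveolar rhabdomyosarcoma with a wild-type (wt) genotype in the labels, grown in RPMI-1640 with fetal calf serum. The study states that its RH30 cells expressed GFP and luciferase throughout. Treated cells received 5 µM BV6, a Smac mimetic that antagonizes inhibitor of apoptosis proteins, for 24 h (3 libraries), and control cells were left untreated (4 libraries). The comparison asks which transcripts differ upon BV6 treatment. BV6 replicates 2, 3 and 4 share the labels BC13, BC14 and BC25/27 with untreated replicates 2, 3 and 4, and untreated replicate 1 carries the label BC11 alone. Total counts ranged from 54070030 to 77220882 per library. Among genes with 1 to 10 counts, 58.8% to 62.8% had an even count, and in each library more genes had 2 counts than 1. Counts may therefore hold both mates of a read pair, and low counts may stand for fewer fragments than their number. Levels are given as CPM, the counts scaled to a common, normalized library size, and 3 counts, taken as the detection floor, corresponded to 0.0389 to 0.0557 CPM. The study calls its RNA-seq replicates biological, while the labels do not state how they were kept apart, so p-values measure the spread between these samples.

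Type I interferons bind a receptor of IFNAR1 and IFNAR2, and the attached kinases JAK1 and TYK2 phosphorylate STAT2. Phosphorylated STAT2 joins IRF9 in the complex ISGF3, which binds interferon-stimulated response elements (ISRE). IRF3 and IRF7 drive transcription of the interferon genes themselves, whereas IRF1 activates and IRF2 mostly represses genes with related elements, and IRF1 is also known as a target of NF-κB.

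The cells carried the markers of their label. In untreated cells, desmin (DES) reached 768 ± 114 CPM, MYOD1 344 ± 86.9 CPM and MYOG 150 ± 53.8 CPM (SD, n = 4). The summed level of the 9 myogenic and rhabdomyosarcoma markers was 2107 to 3023 CPM in untreated and 1303 to 2369 CPM in BV6-treated libraries, and these ranges overlapped. None of the 9 passed the edgeR test or DESeq2, and 2 had an unadjusted p below 0.05, against 8.39% of all tested genes in edgeR. These were the receptor genes FGFR4 and CHRNA1, with log2 fold changes of -0.73 and -0.27. Their log2 fold changes were negative for 7 of 9, with a median of -0.41. With 1 library left out this median ran from -0.60 (without BV6 replicate 4) to -0.24 (without BV6 replicate 3). It was -0.53 without untreated replicate 2 and -0.27 without untreated replicate 1. A correction for GC content, chosen after seeing the data, gave a median of -0.20. The part of these markers in the results was not tested. The 14 leukocyte markers summed to 13.8 to 16.7 CPM in untreated and 11.8 to 15.8 CPM in BV6-treated libraries. The most abundant of them was NKG7 at a mean of 8.52 CPM, and the pan-leukocyte gene PTPRC was at 0.378 ± 0.251 CPM in untreated cells (SD, n = 4). Of the leukocyte list 8 genes were tested and 0 passed edgeR or DESeq2, with 1 at an unadjusted p below 0.05, CD68 (log2 fold change 0.68). Of 7 fibroblast and endothelial markers, 5 were tested and 0 passed either test, with 2 at an unadjusted p below 0.05, PECAM1 (log2 fold change -0.56) and VWF (0.86). Log2 fold changes of LUM, PDGFRA and THY1 were -0.13, 0.13 and -0.20. The 7 markers summed to 147 to 165 CPM in untreated and 113 to 137 CPM in BV6-treated libraries. These sums did not overlap, which was not tested further. The most abundant of the 7 was THY1 at a mean of 91.1 CPM. CD68 and VWF lay higher in every BV6 library, and CD68 shares 1765 of its 2163 exonic bases with another annotated gene on the same strand.

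IRF1 lies on chr5:132440440-132508719 (GRCh38, GENCODE release 44, minus strand). Its promoter is shown because IRF1 was the member that passed the test. RefSeq promoter windows of 300 bases (GRCh38.p14) were found for IRF1, IRF9, STAT2, IFNAR1 and JAK1. They were searched on both strands for the ISRE core GAAANNGAAA, the STAT element GAS (TTCNNNGAA) and the κB consensus. Among 35116 such windows, 3.574% held the ISRE core, 7.657% the GAS letters and 5.909% the κB consensus. The stretch of IRF1 on chr5:132490804-132490907, minus strand, covers positions -134 to -31 from the RefSeq start site, with the GAS match at -124 to -116 and the κB match at -50 to -41 in capitals.
IRF1: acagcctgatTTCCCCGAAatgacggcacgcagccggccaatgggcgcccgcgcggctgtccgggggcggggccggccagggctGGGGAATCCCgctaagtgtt
The window of IRF9 held a GAS match at -63 to -55, shown in capitals in the stretch on chr14:24161192-24161221, plus strand.
IRF9: accacgtgatTTCTGGGAAaaggccctccc
The windows of STAT2, IFNAR1 and JAK1 held none of these letters. A match describes the letters and was not tested for binding.

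Across all genes, 104 of 23124 tested genes (0.45%) differed at an adjusted p below 0.05 in the edgeR quasi-likelihood test with Benjamini-Hochberg adjustment. All 9 members passed the filter on low counts, and 1 of the 9, IRF1, passed the test. With the DESeq2 Wald test the members called were 2 of 9, IRF1 and IRF2, where 1.7% of all genes with an adjusted p were called. Every BV6 library lay above every untreated library for 5 of the 9, namely IFNAR1, IFNAR2, JAK1, IRF1 and IRF2, and for 4.94% of all tested genes. The reverse order was seen for 0 of 9 and for 3.89% of all tested genes. The median log2 fold change of the 9 members was 0.29, and that of all genes tested was -0.01. In bulk RNA, fewer cells with a transcript and less of it per cell cannot be told apart.

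**Figure D1:**
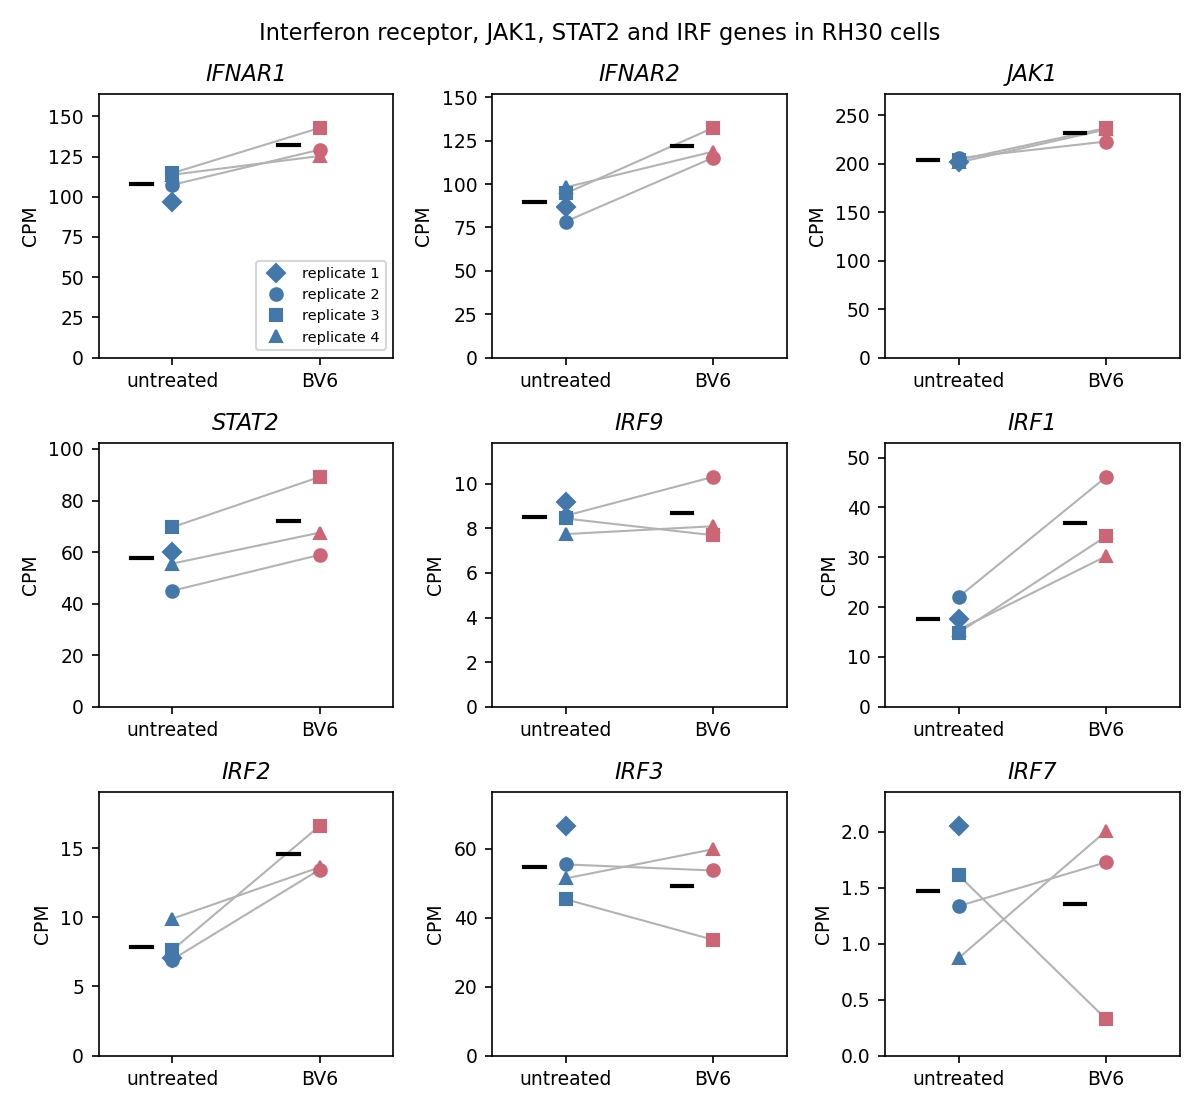
Level in CPM (vertical axis, from 0) of each member in 4 untreated (blue) and 3 BV6-treated (red) libraries. Marker shape gives the replicate, grey lines join libraries with the same BC label, and black bars are group means; IRF1 lay at 14.9 to 22.0 CPM in untreated and 30.2 to 46.1 CPM in BV6-treated libraries.

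The plot of levels by library shows the groups apart for IRF1 and IRF2 and intermixed for IRF3, IRF7 and IRF9. To compare genes with each other, levels in untreated cells were divided by the length of the merged exons. JAK1 led with 15.4 ± 0.147 CPM per kb, followed by IRF3 with 14.4 ± 2.36 CPM per kb (SD, n = 4), which did not differ beyond their spread. IFNAR1 at 6.90 ± 0.529, IFNAR2 at 6.45 ± 0.634 and STAT2 at 6.18 ± 1.10 CPM per kb (SD, n = 4) formed a lower tier and overlapped each other. IRF1 at 1.43 ± 0.264, IRF9 at 1.31 ± 0.0924 and IRF2 at 1.17 ± 0.204 CPM per kb also overlapped. IRF7 was lowest at 0.562 ± 0.189 CPM per kb (SD, n = 4). With the length of the canonical transcript IFNAR1 and IFNAR2, and IRF1 and IRF9, changed places. IFNAR2, IFNAR1 and STAT2 then lay apart, at 22.0 ± 2.16, 17.8 ± 1.37 and 13.1 ± 2.32 CPM per kb (SD, n = 4), so the order within the tiers depends on the length used.

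IFNAR1, the subunit that binds TYK2, was at 96.6, 107, 115 and 114 CPM in untreated replicates 1 to 4 and at 129, 143 and 125 CPM in BV6 replicates 2 to 4. The groups did not overlap. BV6 and untreated cells differed by 0.29 ± 0.10 (SE) on the log2 scale, which did not pass the edgeR quasi-likelihood test (Benjamini-Hochberg adjusted p = 0.452). IFNAR2, the subunit that binds JAK1, was at 86.7, 78.4, 94.6 and 98.2 CPM in untreated and at 115, 132 and 119 CPM in BV6-treated cells. Again, every BV6 library was above every untreated one. Its log2 fold change of 0.45 ± 0.11 (SE) did not pass the edgeR quasi-likelihood test (Benjamini-Hochberg adjusted p = 0.193). IFNAR2 shares 2038 exonic bases with the readthrough gene IFNAR2-IL10RB on the same strand, which was not analysed here and whose reads no strand setting would separate. It also shares 1803 exonic bases with IL10RB-DT on the opposite strand, which had a log2 fold change of 0.44 and a Benjamini-Hochberg adjusted p of 0.208 in the edgeR quasi-likelihood test. Reads of IFNAR2 and IL10RB-DT may not be told apart without the strand setting.

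JAK1, the kinase bound to IFNAR2, varied little between libraries of a group, with 202, 206, 204 and 201 CPM in untreated and 223, 237 and 235 CPM in BV6-treated cells. The groups were separate, and the difference was small next to the level. Its log2 fold change was 0.19 ± 0.085 (SE), not past the edgeR quasi-likelihood test (Benjamini-Hochberg adjusted p = 0.600).

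STAT2 was at 60.1, 45.0, 69.6 and 55.5 CPM in untreated replicates 1 to 4 and at 58.9, 89.1 and 67.5 CPM in BV6 replicates 2 to 4. The groups overlapped, although BV6 was above untreated within each of the 3 shared labels, by 0.39 (BC13), 0.36 (BC14) and 0.28 (BC25/27) on the log2 scale. For STAT2 the log2 fold change of 0.32 ± 0.18 (SE) did not pass the edgeR quasi-likelihood test (Benjamini-Hochberg adjusted p = 0.689). It was 0.14 without BV6 replicate 3, the library with the highest STAT2 level, and 0.22 to 0.45 with any other library left out. IRF9, the DNA-binding subunit of ISGF3, was at 9.20, 8.57, 8.45 and 7.75 CPM in untreated and at 10.3, 7.70 and 8.10 CPM in BV6-treated cells. These values were intermixed. IRF9 had a log2 fold change of 0.03, with a 95% interval from -0.31 to 0.38, and its sign turned without BV6 replicate 2 (-0.10) and without untreated replicate 4 (-0.0065). IRF9 shares 1544 exonic bases with another annotated gene on the same strand.

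IRF1 was at 17.6, 22.0, 14.9 and 15.5 CPM in untreated replicates 1 to 4 and at 46.1, 34.2 and 30.2 CPM in BV6 replicates 2 to 4. The lowest BV6 library was above the highest untreated one. IRF1 rose 2.11-fold, with 17.5 ± 3.24 CPM (SD, n = 4) in untreated cells and 36.8 ± 8.27 CPM (SD, n = 3) upon BV6 treatment. The log2 fold change was 1.07 ± 0.19 (SE), with an adjusted p of 0.0478 in the edgeR quasi-likelihood test with Benjamini-Hochberg adjustment. Within the shared labels the log2 ratio was 1.06 (BC13), 1.20 (BC14) and 0.96 (BC25/27), so that BV6 was higher in 3 of 3. The adjusted p lay close to the threshold and the edgeR call with Benjamini-Hochberg adjustment was lost with RLE normalization (adjusted p = 0.0522). It was also lost in 6 of 7 edgeR fits that left out 1 library, with a Benjamini-Hochberg adjusted p of 0.148, 0.168 and 0.144 without untreated replicates 1, 3 and 4, and of 0.147, 0.0594 and 0.0638 without BV6 replicates 2, 3 and 4. The log2 fold change stayed between 0.89 and 1.20 in these fits, which had fewer samples. Of the 10 alternatives on all 7 libraries, 9 kept the call of IRF1, some of them chosen after seeing the data. Among these, the Benjamini-Hochberg adjusted p was 0.0474 with limma-voom and 0.000145 in the DESeq2 Wald test.

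IRF1 shares 2805 exonic bases (22.87% of its merged exons) with IRF1-AS1, named C5orf56 in the count table, on the opposite strand. The strand setting of the counting is not given in the sources used here, so reads of these genes may not be told apart. C5orf56 rose with a log2 fold change of 1.03 ± 0.17 (SE) and an adjusted p of 0.0366 in the edgeR quasi-likelihood test with Benjamini-Hochberg adjustment. Its counts were 39.3% to 47.1% of those of IRF1 in the 7 libraries. Among 17058 genes with a mean of at least 1 CPM, C5orf56 was the gene whose pattern over the 7 libraries was most like that of IRF1, with a root mean square difference of 0.0845 in centred log2 CPM against a median of 0.616. DTX4 (0.131), AP000781.2 (0.133), NT5E (0.138) and SLC43A3 (0.143) followed by the same measure, and IRF2 ranked 190. For IRF9 the most similar genes were CD2BP2, ZNF629, APEX2, CREB3 and COX19, with root mean square differences of 0.0403 to 0.0454 against a median of 0.248. IRF9 varied little over the libraries, so that genes with little variation lie close to it. For STAT2 they were ZNF192P1, AK9, ARSG, RNF150 and AC006978.2, with 0.0722 to 0.0885 against a median of 0.348.

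IRF2 was at 7.06, 6.95, 7.63 and 9.90 CPM in untreated and at 13.4, 16.6 and 13.6 CPM in BV6-treated cells. The groups did not overlap. Its log2 fold change of 0.88 ± 0.17 (SE) missed the threshold in the edgeR quasi-likelihood test (Benjamini-Hochberg adjusted p = 0.0722) and passed it in the DESeq2 Wald test (Benjamini-Hochberg adjusted p = 0.000458). Over all alternatives the adjusted p of IRF2 ranged from 0.000458 to 0.254 after Benjamini-Hochberg adjustment in edgeR, DESeq2 and limma-voom. The ratio of IRF1 to IRF2 in CPM was 2.29 ± 0.698 in untreated (SD, n = 4) and 2.57 ± 0.749 in BV6-treated cells (SD, n = 3), and a two-sided exact permutation test that does not use the shared labels gave p = 0.629. With 4 against 3 libraries this test cannot go below 0.0571. Within the labels this ratio was 3.17 in untreated and 3.43 in BV6-treated cells (BC13), 1.95 and 2.06 (BC14) and 1.56 and 2.22 (BC25/27). It was higher with BV6 in 3 of 3, which was not tested.

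**Figure D2:**
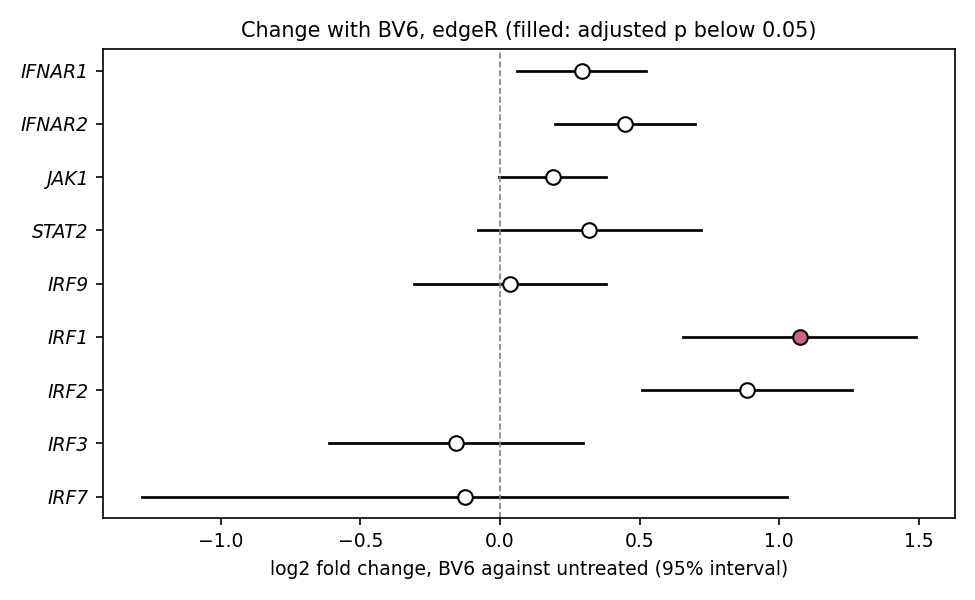
Log2 fold change of each member, BV6 against untreated (horizontal axis), with its 95% interval from the edgeR fit on 4 untreated and 3 BV6-treated libraries; the dashed line marks no difference. The filled point is IRF1 at 1.07, the member with an adjusted p below 0.05, and the widest interval is that of IRF7, from -1.28 to 1.03.

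IRF3, the constitutive factor activated by TBK1, was at 66.6, 55.5, 45.4 and 51.4 CPM in untreated and at 53.7, 33.6 and 59.9 CPM in BV6-treated cells. BV6 replicate 3 was the lowest library, and the groups overlapped. The log2 fold change was -0.16 with a 95% interval from -0.61 to 0.30. IRF7, the interferon-inducible relative of IRF3, was at 2.05, 1.34, 1.61 and 0.873 CPM in untreated and at 1.73, 0.326 and 2.01 CPM in BV6-treated cells. BV6 replicate 3, with 20 counts, lay below all other libraries. IRF7 had a log2 fold change of -0.13 with a 95% interval from -1.28 to 1.03. Without BV6 replicate 3 the signs of both turned, to 0.06 for IRF3 and 0.35 for IRF7, and with limma-voom on all 7 libraries IRF7 was at -0.47. The sign of IRF7 also turned without untreated replicate 1 (0.08). The plot of log2 fold changes and intervals shows this spread beside the narrow intervals of the receptor genes. IRF3 shares 734 exonic bases with BCL2L12 on the opposite strand.

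IRF3 and IRF7 had the highest GC content of the 9 members, 59.0% and 66.8% of the longest transcript. GC content was known for 9 of 9 members but only for 77.6% of all tested genes, so a check over all tested genes is void and the following describes the 17938 genes with a value. In the fifth of them with the highest GC content, from 57.9% upward, the median deviation from the mean log2 CPM was -0.60 in BV6 replicate 3 and 0.40 in untreated replicate 1, and between -0.05 and 0.15 in the other libraries. Within BC14, the label of BV6 replicate 3, the log2 ratio of BV6 to untreated was -0.43 for IRF3 and -2.30 for IRF7. Within BC25/27 these ratios were 0.22 and 1.20. After removal of the trend with GC content from each library, chosen after seeing the data, the log2 fold change was -0.03 for IRF3 and 0.08 for IRF7. With the same correction the log2 fold changes of IRF1, IRF2, IFNAR2 and STAT2 were 1.10, 0.85, 0.39 and 0.34.

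**Figure D3:**
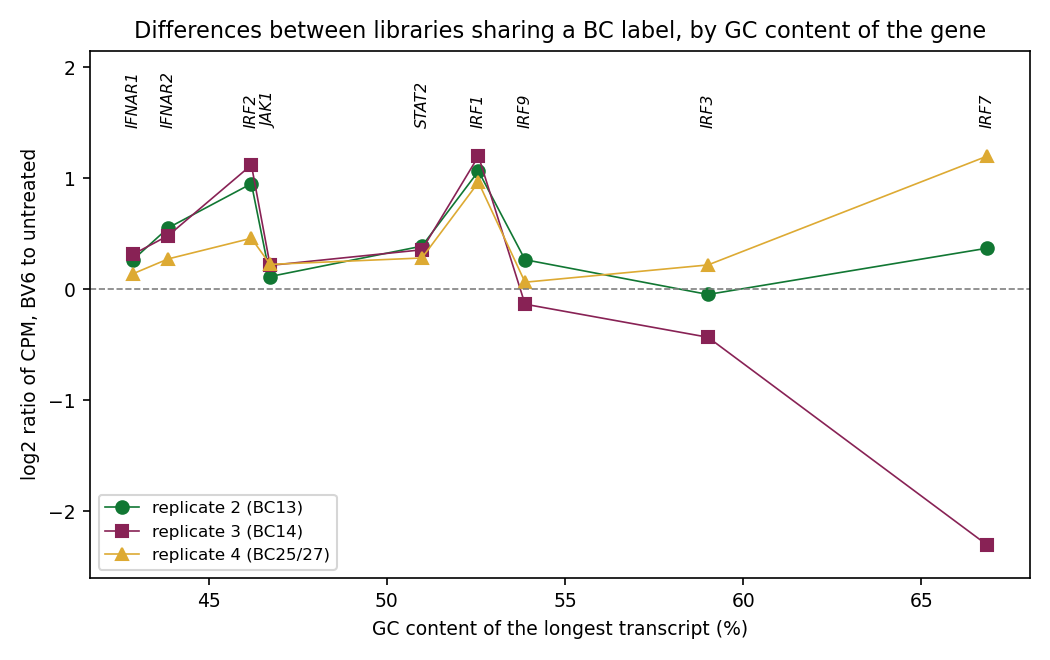
Log2 ratio of CPM, BV6 to untreated (vertical axis), for the 9 members by GC content of the longest transcript in percent (horizontal axis), in the 3 pairs of libraries with the same BC label; lines join the genes of a pair. The pairs lie farthest apart for IRF7, at -2.30 in BC14 and 1.20 in BC25/27, and for IRF2 they run from 0.46 in BC25/27 to 1.12 in BC14.

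The plot of ratios by GC content shows that the spread between the pairs was widest for IRF7. Interferon genes of type I, II and III were near the detection floor. None of the 22 passed the filter on low counts, IFNB1 had 0 counts in all 7 libraries, and the highest single count was 14, for IFNA13. The 17 type I genes, the ligands of IFNAR1 and IFNAR2, summed to 16, 30, 38 and 27 counts in untreated replicates 1 to 4 and to 34, 71 and 42 counts in BV6 replicates 2 to 4. These sums overlapped between the groups and were higher with BV6 within each of the 3 shared labels. IFNA17, chosen after its values were seen, had 0 counts in the untreated libraries and 4, 4 and 3 counts in BV6 replicates 2 to 4. Without the filter 21 of the 22 genes were tested in edgeR, 0 passed, and the median log2 fold change was 0.50. Counts of the IFNA genes are uncertain, since they are near-identical copies of each other.

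Of the type II and III receptor genes, 3 of 4 were tested and 0 passed edgeR or DESeq2. An unadjusted p below 0.05 was seen for 1 of the 3, against 8.39% of all tested genes in edgeR. The log2 fold changes of the 3 were 0.22 (IFNGR1), 0.29 (IFNGR2) and 0.36 (IL10RB). Of the other JAK and STAT genes, 8 of 9 were tested, 0 passed either tool and 0 had an unadjusted p below 0.05. Log2 fold changes were 0.16 (JAK2), -0.14 (JAK3), -0.02 (TYK2), 0.11 (STAT3), -0.50 (STAT5A), 0.03 (STAT5B) and -0.29 (STAT6).

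Of 7 further genes of the IRF family and its binding proteins, 6 were tested, 0 passed edgeR and 1 passed DESeq2. The same 1 had an unadjusted p below 0.05, against 8.39% of all tested genes in edgeR. That gene was IRF2BP2, a corepressor that binds IRF2, with 43.9 ± 3.74 CPM in untreated (SD, n = 4) and 68.1 ± 13.2 CPM in BV6-treated cells (SD, n = 3). Its log2 fold change was 0.63 ± 0.14 (SE), with a Benjamini-Hochberg adjusted p of 0.138 in the edgeR quasi-likelihood test. The log2 fold changes of IRF4, IRF5, IRF8, IRF2BP1 and IRF2BPL were 0.82, -0.28, -0.19, -0.28 and -0.31. IRF4 had only 5 to 9 counts in untreated and 10 to 11 counts in BV6-treated libraries.

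All 13 negative regulators of JAK-STAT signaling were tested and 0 passed edgeR or DESeq2. An unadjusted p below 0.05 was found for 3, against 8.39% of all tested genes in edgeR. Those with the smallest p were the phosphatase PTPN2 (log2 fold change 0.53), SOCS2 (0.74), USP18 (0.45) and SOCS1 (0.75). All 14 adaptors and kinases upstream of IRF3 and IRF7 were tested and 0 passed either tool. Of the 14, 1 had an unadjusted p below 0.05, near the 8.39% of all tested genes. The smallest p were those of the DNA sensor CGAS (log2 fold change 0.41), TBKBP1 (-0.47), TANK (0.27) and the kinase TBK1 (0.24). The median log2 fold change was 0.07 for the negative regulators and 0.04 for the upstream genes. With 1 library left out these medians ran from 0.06 (without untreated replicate 2) to 0.18 (without BV6 replicate 2) and from 0.02 (without BV6 replicate 4) to 0.08 (without BV6 replicate 2).

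Target genes of the pathway were described in the same way. Of 49 ISGF3 target genes 45 were tested, 6 rose and 0 fell in edgeR, and 9 rose in DESeq2. In edgeR 0.45% of all tested genes were called, and in DESeq2 1.7% of all genes with an adjusted p. The 6 were IFIH1, RSAD2, IFIT3, IFIT2, DDX58 and PARP14, and the median log2 fold change of the 45 was 0.47. Genes low in untreated cells entered through their BV6 counts, and with at least 10 counts in every library 37 were tested, 4 rose and the median was 0.30. RSAD2 and IFIH1 were then not tested, and the 4 were IFIT3, IFIT2, DDX58 and PARP14. With limma-voom 5 rose, without IFIT2. IFITM1 and IFITM2, chosen after their values were seen, lay lower in every BV6 library, with log2 fold changes of -0.36 and -0.41. IFIH1 and DDX58 encode the RNA sensors MDA5 and RIG-I. IFIH1 was at 0.117, 0.232, 0.166 and 0.340 CPM in untreated and at 1.96, 4.91 and 3.51 CPM in BV6-treated cells. The groups lay far apart, and the log2 fold change was 4.02 ± 0.41 (SE) with an adjusted p of 0.00490 in the edgeR quasi-likelihood test with Benjamini-Hochberg adjustment. DDX58 had a log2 fold change of 1.40 ± 0.21 (SE), and shares 4471 exonic bases with another annotated gene on the same strand. RSAD2, which encodes viperin, was at 0.0909, 0.0713, 0.0996 and 0.210 CPM in untreated and at 1.07, 1.65 and 1.62 CPM in BV6-treated cells. Here too the groups did not overlap, with 4 to 13 counts against 60 to 101 counts. IFIT3 and IFIT2, which encode antiviral proteins, had log2 fold changes of 2.88 ± 0.31 and 1.82 ± 0.30 (SE), and the ADP-ribosyltransferase gene PARP14 one of 0.93 ± 0.15 (SE). The number of ISGF3 targets that rose was 3 without untreated replicate 1, 2, 3 or 4 and without BV6 replicate 4, each time IFIT3, RSAD2 and IFIH1, and 6 and 5 without BV6 replicates 2 and 3.

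Of the ISGF3 targets that rose, promoter windows were found for IFIT3, RSAD2, IFIH1, PARP14 and DDX58. ISRE cores are shown for IFIT3, RSAD2, IFIH1 and PARP14. The match is in capitals, and the windows are from RefSeq on GRCh38.p14. The stretches lie on chr10:89327865-89327894 (IFIT3, plus strand), chr2:6877622-6877651 (RSAD2, plus strand), chr2:162318686-162318715 (IFIH1, minus strand) and chr3:122680800-122680829 (PARP14, plus strand), all upstream of the start site.
IFIT3: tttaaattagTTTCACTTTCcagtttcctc
RSAD2: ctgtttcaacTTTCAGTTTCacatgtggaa
IFIH1: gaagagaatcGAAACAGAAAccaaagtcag
PARP14: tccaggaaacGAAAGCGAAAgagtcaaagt
The windows of IFIT3 held 4 matches in all and that of IFIH1 held 3, of which 2 overlap each other. The window of DDX58 held no ISRE core. Matches to the κB consensus were found for DDX58 and IFIH1 (both at -76 to -67) and for GBP4, and GAS matches for PARP14, GBP3 and WARS.

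Of 26 genes known as IRF1 targets 22 were tested, 3 rose and 0 fell in edgeR, and 8 rose in DESeq2. The shares called among all genes were 0.45% in edgeR and 1.7% in DESeq2. The 3 were WARS, GBP4 and GBP3, and the median log2 fold change of the 22 was 0.38. With at least 10 counts in every library 19 were tested and the median was 0.24. GBP4 was then not tested, and WARS, GBP3 and TAPBP rose. The call of GBP4 was also lost in limma-voom and in edgeR with a replicate block (Benjamini-Hochberg adjusted p = 0.0511 and 0.0866). WARS, the tryptophanyl-tRNA synthetase, was at 101, 114, 99.3 and 114 CPM in untreated and at 236, 194 and 167 CPM in BV6-treated cells. The groups did not overlap, and the log2 fold change was 0.89 ± 0.13 (SE) with an adjusted p of 0.0220 in the edgeR quasi-likelihood test with Benjamini-Hochberg adjustment. The guanylate-binding protein genes GBP3 and GBP4 had log2 fold changes of 0.91 ± 0.15 and 2.28 ± 0.38 (SE), GBP4 from 4 to 9 counts in untreated to 21 to 34 counts in BV6-treated libraries. TAPBP, encoding the peptide-loading factor tapasin, had a log2 fold change of 0.88 ± 0.15 (SE) and a Benjamini-Hochberg adjusted p of 0.0519 in the edgeR quasi-likelihood test. The number of IRF1 targets that rose was 0 without untreated replicate 1, 3 or 4 or BV6 replicate 2. It was 1, WARS, without untreated replicate 2 or BV6 replicate 4, and 2, WARS and TAPBP, without BV6 replicate 3. In these fits the log2 fold change ran from 0.76 to 1.00 for WARS, 0.85 to 0.97 for GBP3 and 2.04 to 2.44 for GBP4. An ISRE core was present in the windows of GBP3, GBP4 and WARS, in the last at -55 to -46 on chr14:100375383-100375412, minus strand.
WARS: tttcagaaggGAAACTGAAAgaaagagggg

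**Figure D4:**
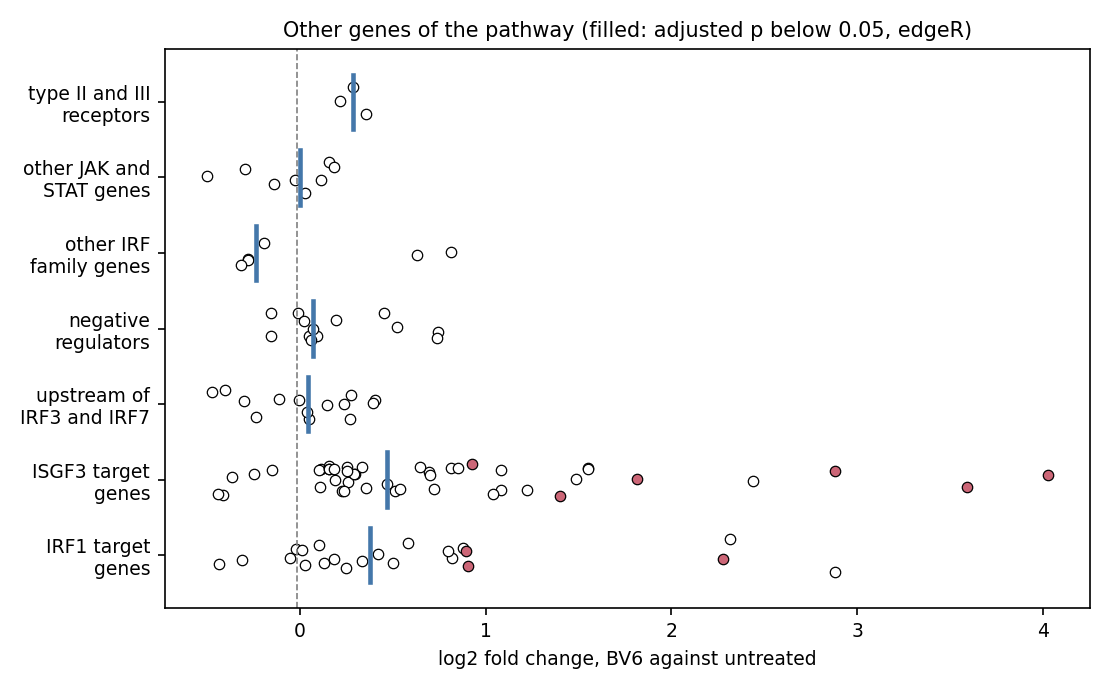
Log2 fold change, BV6 against untreated (horizontal axis), of each tested gene in 7 groups of pathway genes; points are genes, filled where the edgeR adjusted p was below 0.05, and vertical bars are medians. The dashed line is the median of all genes tested, and filled points appear only among the ISGF3 targets (6) and the IRF1 targets (3).

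The plot of the pathway groups shows the 9 called targets, all with positive values. RSAD2, IFIH1 and GBP4 among them entered the test through their BV6 counts, so their sign says little. The members, their targets and the other genes were compared in the same libraries, and differences between the groups of genes were not tested.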

How the data were processed

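Unnormalized gene counts of 7 RH30 libraries, prepared with a stranded kit after poly(A) selection, were deposited by the authors. Per the submitters' processing notes, reads were mapped to GRCh38 with STAR 2.6.1d, and the paper describes counting over a union of isoforms of each Ensembl gene. The counting program, its strand setting and the treatment of mates are not given in the sources used here. Sequencing was paired-end, and total counts exceed the read numbers given for the libraries. Groups were taken from the sample labels.

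Differential expression was tested by the quasi-likelihood method of edgeR 4.0.16 (R 4.3.3) with condition as the factor. Genes were kept by filterByExpr (at least 10 counts), library sizes were normalized by TMM, and p-values were adjusted over 23124 genes by Benjamini-Hochberg with a threshold of 0.05. Standard errors were derived from the F statistic. The script was tested on simulated data. DESeq2 1.42.0, limma-voom (limma 3.58.1), RLE normalization, other filters, halved counts, a replicate block and each library left out were tried as alternatives, and corrections for GC content were added after seeing the data. Exact permutation tests used scipy 1.17.1. Positions and lengths came from GENCODE release 44, in which 37206 of 57189 genes were matched, and promoters from RefSeq on GRCh38.p14. The paper names an older Ensembl annotation for its counts, so exon lengths and overlaps may differ from those of the genes as counted. Detection floors and intervals cover counting error or the spread of these samples only.

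The members and lists were chosen with earlier results of these data known. Genes named are the 9 members, every tested gene of pathway lists with up to 10 tested genes, and of longer pathway lists each gene with an adjusted p below 0.05 and the 4 with the smallest p. They further include the 5 genes most like IRF1, IRF9 and STAT2 by root mean square difference of centred log2 CPM (prior count 2). A gene that this rule would name is not reported here. Genes overlapping a member and the cell type markers with values were named outside this rule, after their values were seen.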

Additional observations from a re-analysis of the deposited data

How the results depend on the processing

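The 9 members kept the sign of their log2 fold change under all alternatives except IRF3, IRF7 and IRF9. The value of IRF3 was 0.0060 with GC correction and replicate block, and -0.332 (without BV6 replicate 4) to 0.0581 (without BV6 replicate 3) with 1 library left out. That of IRF7 was -0.474 with limma-voom, against -0.127 in edgeR, 0.0792 without untreated replicate 1, -0.540 (without BV6 replicate 4) to 0.348 (without BV6 replicate 3) over the fits with 1 library left out, 0.0779 with GC correction and 0.10 with GC correction and replicate block. That of IRF9 was -0.0972 without BV6 replicate 2, -0.0065 without untreated replicate 4 and at most 0.121 with 1 library left out. The corrections for GC content were chosen after seeing the data, and the cause of these changes was not tested.

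The log2 fold change of IRF1 was 1.06 with RLE, past the threshold no longer, and 0.89 to 1.20 with 1 library left out. IRF2 passed the threshold with DESeq2 (0.87), no filter (0.88), GC correction (0.85) and GC correction with replicate block (0.83), and with the last also STAT2 (0.35) and IFNAR2 (0.41). Members called numbered 0 with RLE, 2 with DESeq2, no filter or GC correction, 4 with GC correction and replicate block, and 0 to 1 with 1 library left out. Genes called in all, 104, became 408 with DESeq2, 242 without filter, 221 with GC correction, 1185 with GC correction and replicate block, and 38 to 89 with 1 library left out, where fewer samples were fitted. The 5 members with separate groups also numbered 5 with RLE and with plain library sizes.

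With the replicate block alone, 218 genes and 1 member, IRF1 (log2 fold change 1.08, edgeR Benjamini-Hochberg adjusted p = 0.0080), were called, and 10 ISGF3 targets and 5 IRF1 targets rose. The 5 held WARS and GBP3 but not GBP4 (edgeR Benjamini-Hochberg adjusted p = 0.0866). GC correction alone called 6 ISGF3 and 7 IRF1 targets, all higher. Counts halved and rounded up gave 6 ISGF3 and 5 IRF1 targets that rose, and no filter on low counts gave 10 and 7. With GC correction and replicate block 15 ISGF3 targets rose and 1 fell, and 9 IRF1 targets rose and 1 fell. In this fit 3 upstream adaptors and kinases, 2 negative regulators and IRF2BP2 also rose, and 3 of 9 myogenic markers and 1 fibroblast and endothelial marker, PECAM1, fell. The median log2 fold change of the negative regulators was 0.22 there. Deviations of libraries with the same label correlated at 0.462 (BC13), 0.438 (BC14) and 0.0847 (BC25/27), and at a mean of -0.174 for different labels, across genes. As 1 of the 3 was below 0.1 and the labels do not say what they mark, they were not taken as pairs.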
